A study of Homo sapiens with 14 samples.

Results

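The response of A549 cells to 15 min of MS023 given together with dexamethasone (Dex) was compared with untreated cells, in 2 libraries of each out of the 14 libraries of the series. The members were chosen by their labels alone. A549 is a human lung adenocarcinoma line, MS023 inhibits the type I protein arginine methyltransferases, and Dex is a synthetic glucocorticoid. Transcription was read by precision run-on sequencing (PRO-seq), in which engaged polymerases in permeabilized cells add labelled nucleotides, so that the RNA sequenced comes from polymerases in the act of transcription. Treated cells received 1 µM MS023 and 100 nM Dex and untreated cells received neither, each for 15 min. All groups of the series carried 0.01% DMSO. The other 15 min groups, used only where stated, received MS023 alone, GSK591 alone or GSK591 with Dex, with 2 libraries each, GSK591 being an inhibitor of the type II enzyme PRMT5 (1 µM). The remaining groups were given 1 µM GSK591 or 1 µM MS023 for 3 h, with 2 libraries each. They entered the fit of all 14 libraries and are not compared here. MS023 and Dex changed together in this comparison, and cells given Dex without an inhibitor are not analysed here. MS023 alone and the step from MS023 alone to MS023 with Dex are therefore set beside the main values.

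Glucocorticoids bind the glucocorticoid receptor, which moves to the nucleus, binds DNA and switches genes on within minutes. Its classic targets include repressors of inflammatory signalling, the clock gene PER1, transcription factors of the KLF and C/EBP families and genes of fuel use. Lung epithelial cells are a standard model for this response, because inhaled glucocorticoids act on them. Type I arginine methyltransferases place asymmetric dimethyl marks on histones, RNA-binding proteins and transcriptional coregulators.

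Total counts were 8756911 to 9606938 in the 4 libraries compared and 5768312 to 9606938 over the series. Mitochondrial genes took 53.9% ± 0.18 of counts in untreated cells and 51.3% ± 2.4 with MS023 and Dex, against 42.2% ± 3.3 with MS023 alone (SD, n = 2). Replicates correlated at Pearson's r of 0.983 and 0.981 across genes (log2 CPM), which are not independent replicates. Of 15 lung epithelial markers, 12 were tested, with 2 called higher and 0 lower. The other 3 (NKX2-1, SFTPA1 and GRHL2) did not pass the filter on low counts, and SFTPA1 was at 0 in all 4 libraries. The summed level of the 15 was 1360 to 1381 CPM (counts scaled to library size) untreated and 1445 to 1498 with MS023 and Dex. KRT7 was the highest of them, with means of 457.7 CPM untreated and 586.6 with MS023 and Dex. Markers of other cell types summed to 13.5 to 14.9 and 17.8 to 17.9 CPM, and 3 of these 15 genes passed the filter on low counts, with none called. The labels do not say that replicates came from separate cultures, so p-values measure only the spread between these libraries, which may be technical. In bulk samples a change within each cell and a change in the share of cells that respond cannot be told apart.

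Of 21910 genes tested, 1679 (7.66%) differed between MS023 with Dex and untreated cells at an adjusted p under 0.05, with 1093 higher (4.99%) and 586 lower (2.67%). The median log2 fold change was 0.67 among the genes that rose and -0.57 among those that fell. More than 2-fold rises were found at 250 genes and more than 2-fold falls at 81. The libraries of the groups did not overlap at any of the 1679 genes, a separation that 25.2% of all genes tested showed upward and 25.5% downward. The count depended on having both replicates: it was 657 without untreated replicate 1, 908 without untreated replicate 2, 963 without MS023 with Dex replicate 1 and 759 without replicate 2. DESeq2 called 832 genes, library-size scaling 977 and a fit of only these 4 libraries 2620.

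**Figure D1:**
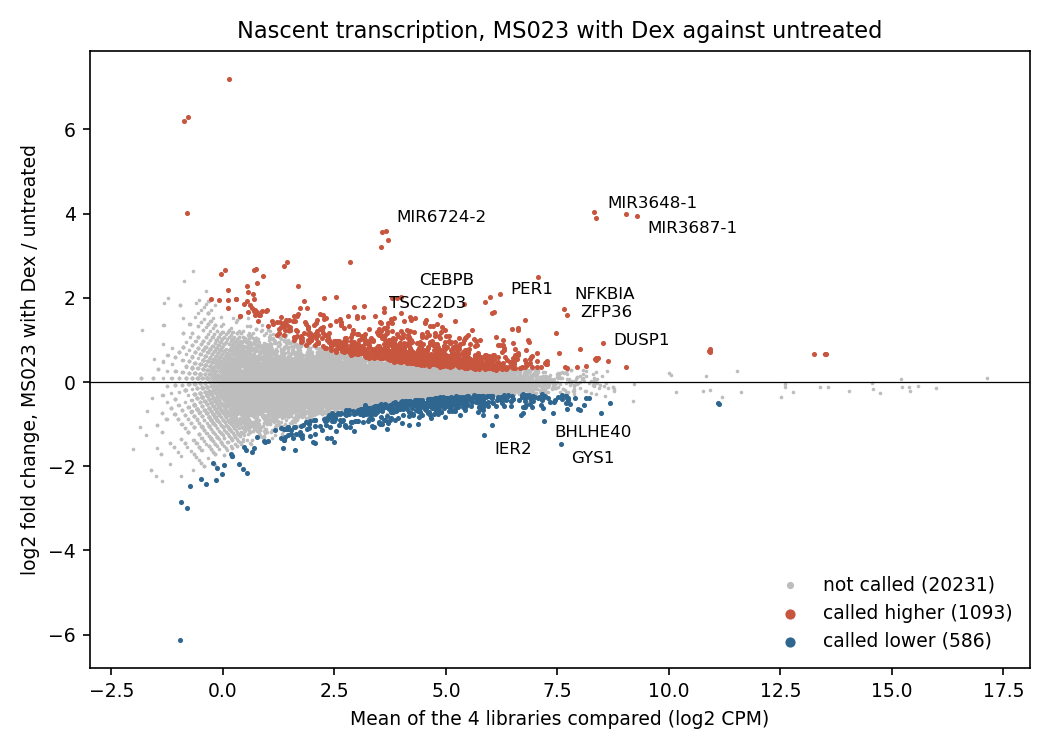
Log2 fold change of MS023 with Dex over untreated (vertical axis) against the mean of the 4 libraries in log2 CPM (horizontal axis), 1 point per gene tested (21910). Red points are the 1093 genes called higher and blue points the 586 called lower; PER1 at 2.10 and GYS1 at -1.47 lie at the edges of the cloud, and the microRNA genes of the ribosomal DNA repeats lie above all other labelled genes.

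MS023 alone called 40 genes (0.183%) against untreated cells, with 18 higher (0.0822%) and 22 lower (0.1%) and 1770 at an unadjusted p under 0.05. Dex added to MS023 called 1966 (8.97%), with 1293 higher (5.9%) and 673 lower (3.07%). With library size as the scaling, the latter split turned to 533 higher and 1317 lower, since the median of all genes moved to -0.19. GSK591 with Dex called 1282 against the same untreated libraries (5.85%; 3.21% higher, 2.64% lower). No gene was called between MS023 with Dex and GSK591 with Dex by edgeR, where 1659 had an unadjusted p under 0.05. DESeq2 also called 0 there, and edgeR called 78 without GSK591 with Dex replicate 1 and 35 with no filter on low counts.

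A list of 40 genes known to be induced by glucocorticoids was mostly higher. Of its 39 members tested, 30 rose and 0 fell, against 4.99% and 2.67% of all genes, and the median log2 fold change was 0.92 against 0.00 over all genes tested. The fold change was above 0 at 38 members. Both treated libraries were above both untreated ones at 35, a separation that 25.2% of all genes tested showed. MS023 alone called 0 of the 39 (median 0.01), and Dex added to MS023 called 30 higher (median 1.02; 24 and a median of 0.85 with library-size scaling). Between 25 and 31 members were called higher when any 1 of the 4 libraries was left out, and 25 by DESeq2.

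PER1, a repressor at the core of the circadian clock, rose from 26.9 and 29.01 CPM to 111.7 and 128.4 CPM, a log2 fold change of 2.10 ± 0.12 (SE; adjusted p 8.4e-16). It lies on chromosome 17 (8140472 to 8156506, minus strand, GRCh38, 22 annotated exons), and another gene's exons overlap it. With MS023 alone it stood at 25.6 and 39.2 CPM. The treated libraries were both far above the untreated ones and above those given MS023 alone. TSC22D3, which encodes GILZ, a mediator of anti-inflammatory glucocorticoid action, rose from 23.6 and 26.3 to 87.4 and 98.5 CPM (1.90 ± 0.11, adjusted p 8.4e-16). The groups did not overlap, and MS023 alone left it at 24.3 and 26.1 CPM. FKBP5, a cochaperone that lowers the receptor's affinity for hormone, rose from a low level of 5.92 and 5.47 to 12.0 and 15.4 CPM (1.27 ± 0.21, adjusted p 4.2e-05).

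The listed genes NFKBIA, ZFP36, TNFAIP3 and DUSP1, which restrain inflammatory signalling and were picked with their values known, each rose, whereas the inhibitor gene NFKBIB, described with the NF-κB list, fell. NFKBIA, which holds NF-κB in the cytoplasm, went from 86.8 and 98.1 to 299.6 and 314.5 CPM (1.73 ± 0.10, adjusted p 8.5e-16), with no overlap of the groups. ZFP36, which encodes the mRNA decay factor tristetraprolin, went from 111.3 and 98.8 to 302.5 and 332.4 CPM (1.60 ± 0.10, adjusted p 1.2e-15). TNFAIP3, the ubiquitin-editing enzyme A20, rose by 1.26 ± 0.18 from below 7 CPM. DUSP1, a phosphatase that switches off MAP kinases, was the most highly transcribed of these, at 259.1 and 252.5 CPM untreated and 448.3 and 520.5 CPM treated (0.92 ± 0.11, adjusted p 5.6e-08). These 4 genes differed by 0.07, -0.15, 0.15 and -0.15 with MS023 alone, none of it called.

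**Figure D2:**
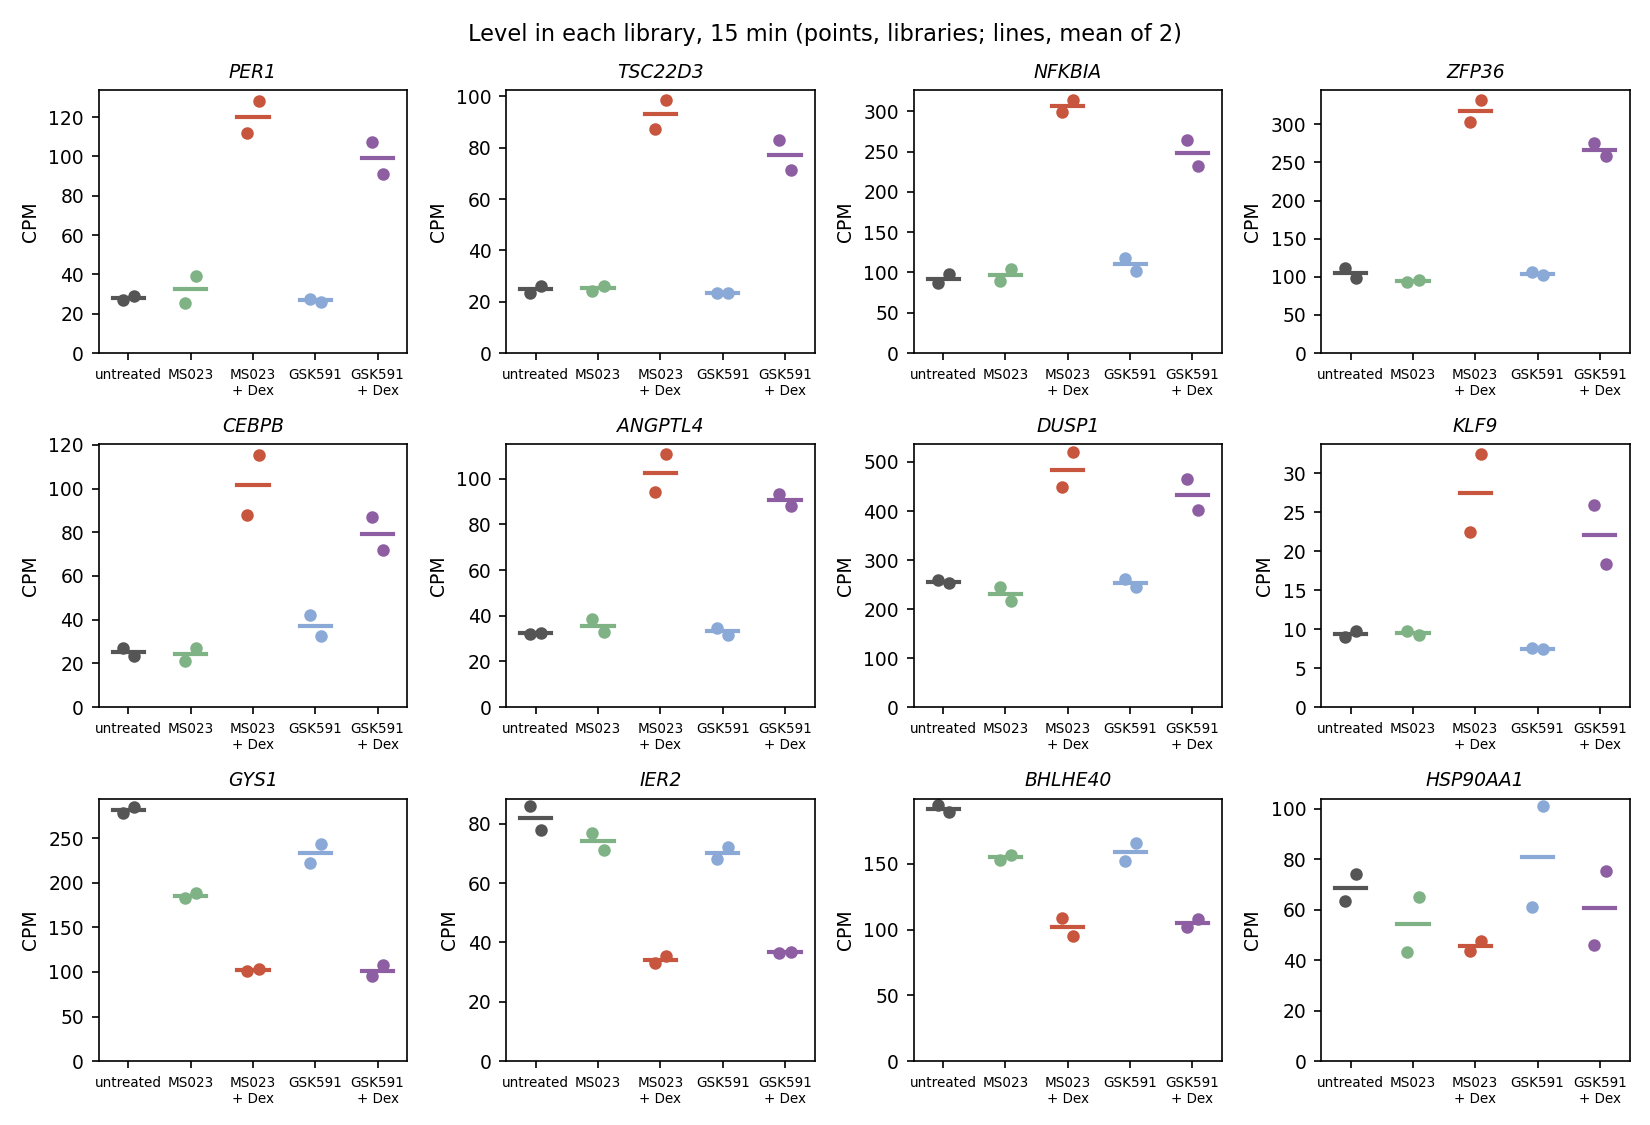
Level in CPM (vertical axes, starting at 0) of 12 genes in each 15 min library (points) with the mean of the 2 libraries of a group (lines), for untreated cells and cells given MS023, MS023 with Dex, GSK591 or GSK591 with Dex. The first 8 genes are high in both Dex groups, and GYS1, IER2 and BHLHE40 are low there; GYS1 is also lower with MS023 alone, and HSP90AA1 overlaps between several groups.

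Factors of the KLF and C/EBP families, many of them relays of the hormone response, were largely higher. Of 19 tested, 11 rose and 1 (KLF10) fell, beside 4.99% and 2.67% of all genes, with a median of 0.42. CEBPB rose from 27.0 and 23.21 to 87.7 and 115.4 CPM (2.02 ± 0.14), CEBPD by 1.27 ± 0.11, KLF6 by 1.16 ± 0.10 and KLF4 by 1.24 ± 0.13. KLF9, a direct receptor target, went from 9.03 and 9.74 to 22.4 and 32.4 CPM (1.55 ± 0.17). KLF15 rose from 26.4 and 30.7 to 55.7 and 68.7 CPM (1.13 ± 0.18) and CEBPA from 46.1 and 43.1 to 88.0 and 99.6 CPM (1.07 ± 0.13). Both already stood above the untreated levels with GSK591 alone, at 87.3 and 57.5 CPM for KLF15 and 87.7 and 74.5 CPM for CEBPA. GSK591 alone was not tested against untreated cells. The call of KLF10 was lost whichever of the 4 libraries was left out, with log2 fold changes of -0.49 to -0.34.

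Genes of fuel use moved in both directions, counted here beside 4.99% of all genes called higher and 2.67% called lower. Of 31 tested, 5 rose and 1 fell, with a median of 0.04, and 3 rose when any 1 of the 4 libraries was left out. ANGPTL4, a secreted inhibitor of lipoprotein lipase, rose from 31.8 and 32.6 to 94.3 and 111.0 CPM (1.67 ± 0.10). PDK4, which restrains pyruvate oxidation, rose from 9.79 and 10.9 to 22.4 and 26.7 CPM (1.25 ± 0.15), and EPM2A, the glycogen phosphatase laforin, by 1.32 ± 0.15. GYS1, the muscle form of glycogen synthase, fell more than any other gene under the naming rule, from 278.8 and 285.1 to 100.8 and 103.0 CPM (-1.47 ± 0.10, adjusted p 1.1e-13). GYS1 lies on chromosome 19 (48968125 to 48993310, minus strand, 16 exons) and shares no exon with another gene. It was one of the 22 genes that fell with MS023 alone (182.6 and 188.7 CPM, -0.60, adjusted p 0.00081), and Dex added to MS023 gave a further -0.86. Each group's pair of libraries was close, and the 3 groups did not overlap.

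**Figure D3:**
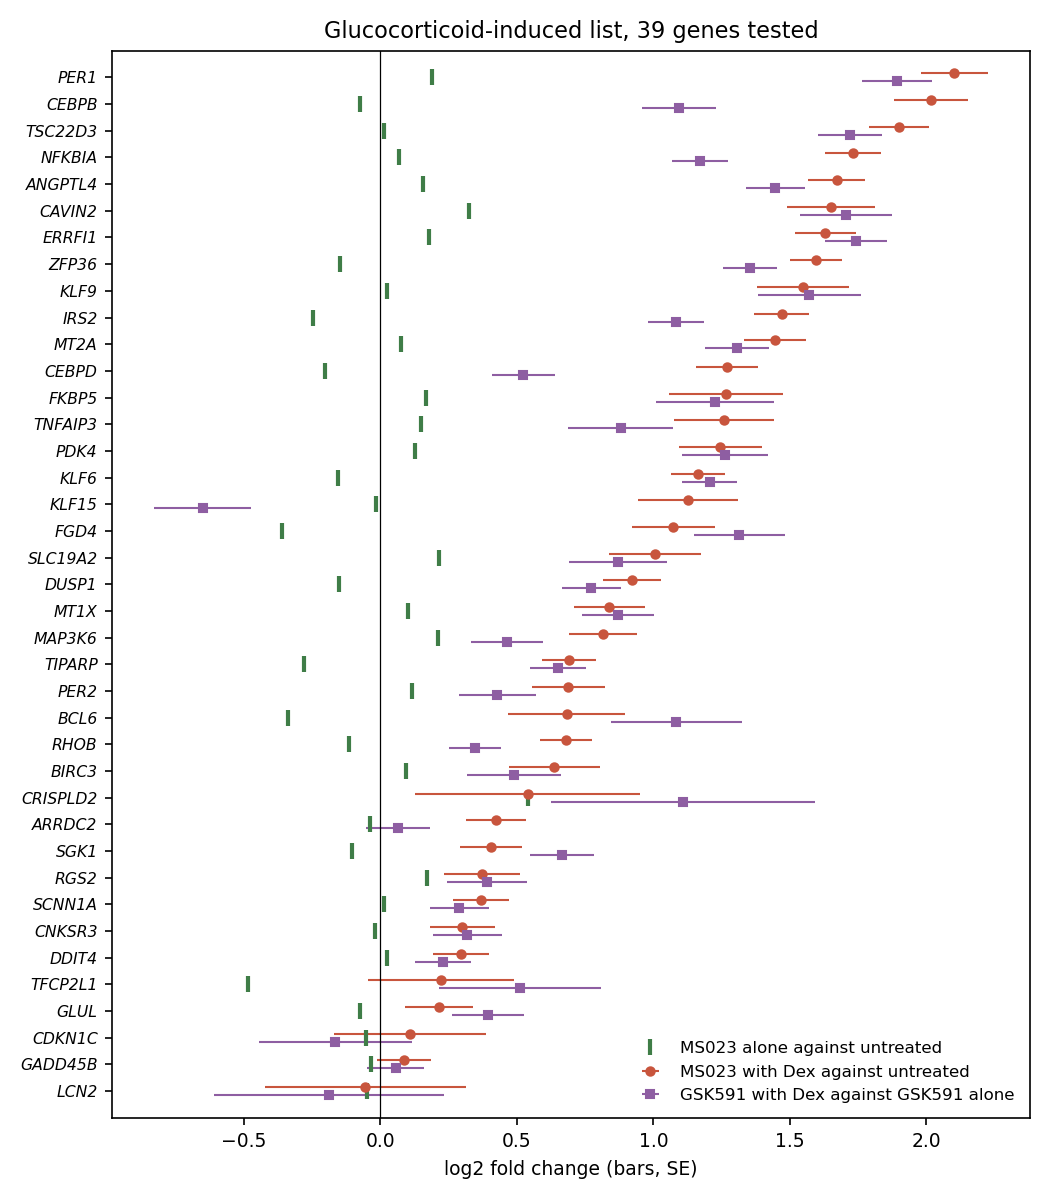
Log2 fold change (horizontal axis; bars, SE) of the 39 members of the glucocorticoid-induced list that were tested, for MS023 with Dex against untreated (red circles) and for GSK591 with Dex against GSK591 alone (purple squares, other libraries), with MS023 alone against untreated as green ticks. PER1 and CEBPB are highest at 2.10 and 2.02, LCN2 is the 1 member below 0 at -0.05, and KLF15 stands at -0.65 in the GSK591 libraries.

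A Dex response can also be read in libraries outside this comparison, a reading added after seeing the data. GSK591 with Dex against GSK591 alone shares no library with it and called 811 genes (3.7%; 1.43% higher, 2.27% lower). Of the 1093 genes that rose here, 165 (15.1%) were called higher there and 1 lower, with a median of 0.22. They make up 52.7% of the 313 genes called higher there. Of the 586 that fell, 229 (39.1%) were called lower and 0 higher, with a median of -0.41, and make up 46.0% of the 498 genes called lower there. Of the glucocorticoid-induced list, 25 members were called higher (median 0.87) and 1, KLF15, lower. Those counts moved with each library. Without GSK591 with Dex replicate 1, 1007 genes were called, 122 and 174 of them shared with the rises and falls here, and without replicate 2, 354 (126 and 126 shared). Without GSK591 replicate 1, 339 were called (115 and 128 shared) and without replicate 2, 364 (79 and 145 shared). Between 20 and 24 of the list were called higher in these 4 fits, and library-size scaling gave 98 higher and 1374 lower. PER1 stood at 1.89 ± 0.13 in those libraries, TSC22D3 at 1.72 ± 0.12, ZFP36 at 1.35 ± 0.10 and GYS1 at -1.20 ± 0.10. The effect of Dex differed between the inhibitors at 252 genes (1.15%), a count that was 8 without MS023 replicate 1, 31 without GSK591 replicate 1, 57 without MS023 with Dex replicate 2, and 105 and 490 without replicates 2 and 1 of GSK591 with Dex. The authors' deposited table for MS023 with Dex against untreated is of the same groups and so is not independent. It called 238 genes (180 higher, 58 lower), and all 238 were called here in the same direction. Most of the 1679 genes called here were not called there.

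Starts of the glucocorticoid-induced genes were read for motifs because the members moved together. RefSeq start windows (GRCh38.p14, 250 bases before to 50 after the start) were matched for 36 of the 39 members and for 12720 of the 21910 genes tested. The receptor's palindrome, AGAACA and TGTTCT with 3 letters between, was searched on both strands with up to 2 mismatches: it was in 0 of the 36 windows and 0.574% of all. Either 6-letter arm alone (AGAACA or TGTTCT) was in 8.33% against 9.21%. The TATA box letters TATAAA, read on the gene's strand, were in 6 of 36 (16.7%) against 4.23% of all windows. Over all called genes TATAAA was near that background, in 4.95% of 747 windows of genes called higher. For genes called lower it was in 4.94% of 405 windows. The cyclic AMP element TGACGTCA was in 2.78% of the list's windows against 3.07% of all. The 250 bases before the start are shown for 4 called members that hold TATAAA, in capitals, at -30 in DUSP1 and -29 in the others, with TGACGTCA in capitals at -125 in DUSP1.
DUSP1 (chr5:172771196-172771445, minus strand): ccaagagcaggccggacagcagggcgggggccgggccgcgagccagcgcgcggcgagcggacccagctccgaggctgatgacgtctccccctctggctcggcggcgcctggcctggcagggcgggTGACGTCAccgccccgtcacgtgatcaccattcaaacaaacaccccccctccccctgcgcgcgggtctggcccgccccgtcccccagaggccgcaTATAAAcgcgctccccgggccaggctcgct
CEBPB (chr20:50190580-50190829, plus strand): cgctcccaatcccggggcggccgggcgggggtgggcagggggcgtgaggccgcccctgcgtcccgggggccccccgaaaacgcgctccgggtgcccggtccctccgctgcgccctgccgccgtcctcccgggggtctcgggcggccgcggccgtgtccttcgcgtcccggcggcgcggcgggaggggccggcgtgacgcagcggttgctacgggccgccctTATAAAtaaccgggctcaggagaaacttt
MT2A (chr16:56608334-56608583, plus strand): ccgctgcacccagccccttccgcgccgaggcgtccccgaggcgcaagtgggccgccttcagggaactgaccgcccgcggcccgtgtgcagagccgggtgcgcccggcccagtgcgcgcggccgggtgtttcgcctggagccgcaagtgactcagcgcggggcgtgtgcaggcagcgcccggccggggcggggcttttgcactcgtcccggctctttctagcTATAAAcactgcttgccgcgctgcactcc
ANGPTL4 (chr19:8363905-8364154, plus strand): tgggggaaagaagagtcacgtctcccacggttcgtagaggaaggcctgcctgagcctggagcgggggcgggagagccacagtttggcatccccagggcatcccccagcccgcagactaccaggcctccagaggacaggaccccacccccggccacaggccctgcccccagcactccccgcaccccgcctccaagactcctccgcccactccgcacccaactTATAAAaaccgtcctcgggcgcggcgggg
The RefSeq starts of MT2A and ANGPTL4 lie 385 and 866 bases from the GENCODE gene starts. The windows hold starts only, so sites farther away are not described.

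MT2A, a metal-binding metallothionein and a long-known glucocorticoid target, rose from 20.2 and 19.5 to 52.8 and 55.3 CPM (1.44 ± 0.11). The long noncoding gene AC026461.3 lies on the opposite strand with its end 4 bases from that of MT2A, and rose from 6.35 and 6.24 to 24.9 and 26.1 CPM (2.02 ± 0.17). The strand setting of the counting is not given in the sources used here, so reads of overlapping genes may be shared. This makes the values of these named genes, whose exons overlap another gene, uncertain: TSC22D3, CEBPB, CEBPA, ANGPTL4, ERRFI1, EPM2A, TNFAIP3, IER2, BHLHE40, MAFG, MCL1, BTG1, PLAU, PER2, SMURF2, SCNN1A, HSP90AA1, JMJD6, PRMT1, PRMT5, SNRPB, SRXN1, H2BC18, MIR663AHG, MAP3K1, NFKBIB, CIROP, PHB1 and CDK2. The related metallothionein gene MT1X, which another gene also overlaps, rose by 0.84 ± 0.13, and reads of these similar genes may be split between them.

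Immediate early genes, which respond within minutes to growth signals and stress, split. Of 34 tested, 10 rose and 7 fell, beside 4.99% and 2.67% of all genes, with a median of 0.01. The falls were fewer under other settings: 2 to 3 fell and 8 to 10 rose when any 1 of the 4 libraries was left out, and 2 fell and 9 rose with library-size scaling. IER2 fell from 85.9 and 77.8 to 32.9 and 35.4 CPM (-1.26 ± 0.10, adjusted p 4.1e-12), and MAFG, a small MAF factor, by 0.57 ± 0.09 on the log2 scale. MCL1, an antiapoptotic BCL2 relative, rose by 0.80 ± 0.10, BTG1, an antiproliferative gene, by 1.00 ± 0.11, and FOSL2, an AP-1 subunit, by 0.50 ± 0.09. JUN stood at 81.4 and 88.8 CPM untreated and 69.0 and 62.4 treated (-0.37 ± 0.10). Its call was lost without MS023 with Dex replicate 2 or untreated replicate 2, with -0.31 to -0.30. MYC was not called (0.24 ± 0.09, adjusted p 0.13), except in the fit of only these 4 libraries (0.23, adjusted p 0.044).

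Chemokine, cytokine and other inflammatory genes were mostly not called: of 27 tested, 3 rose and 2 fell, with a median of 0.01. Counts of calls in this paragraph stand beside 4.99% of all genes called higher and 2.67% called lower. The chemokine gene CXCL2 rose from 16.7 and 19.7 to 36.7 and 41.3 CPM (1.10 ± 0.13). PLAU, which encodes the plasminogen activator urokinase, fell from 27.6 and 26.4 to 13.2 and 17.2 CPM (-0.83 ± 0.14). The urokinase receptor gene PLAUR also fell (-0.57 ± 0.12), a call lost without MS023 with Dex replicate 1 or untreated replicate 2 (-0.47 to -0.39). Among NF-κB subunits and feedback genes, 4 of 21 rose and 2 fell, and 2 to 4 rose and 1 to 2 fell without any 1 library. NFKB2, a subunit precursor, was lower by -0.57 ± 0.10. NFKBIB, an inhibitor of NF-κB related to NFKBIA, also fell, from 25.4 and 21.3 to 16.6 and 15.3 CPM (-0.55 ± 0.14). That call was lost without MS023 with Dex replicate 2 or untreated replicate 1 (-0.49 to -0.42). Of 18 MAP kinase feedback genes, 5 rose and 0 fell (median 0.25), with 3 to 4 rises without any 1 library. ERRFI1, an inhibitor of the EGF receptor, rose from 31.9 and 31.8 to 102.2 and 94.9 CPM (1.63 ± 0.11), and the phosphatase gene DUSP5 rose by 0.88 ± 0.10.

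**Figure D4:**
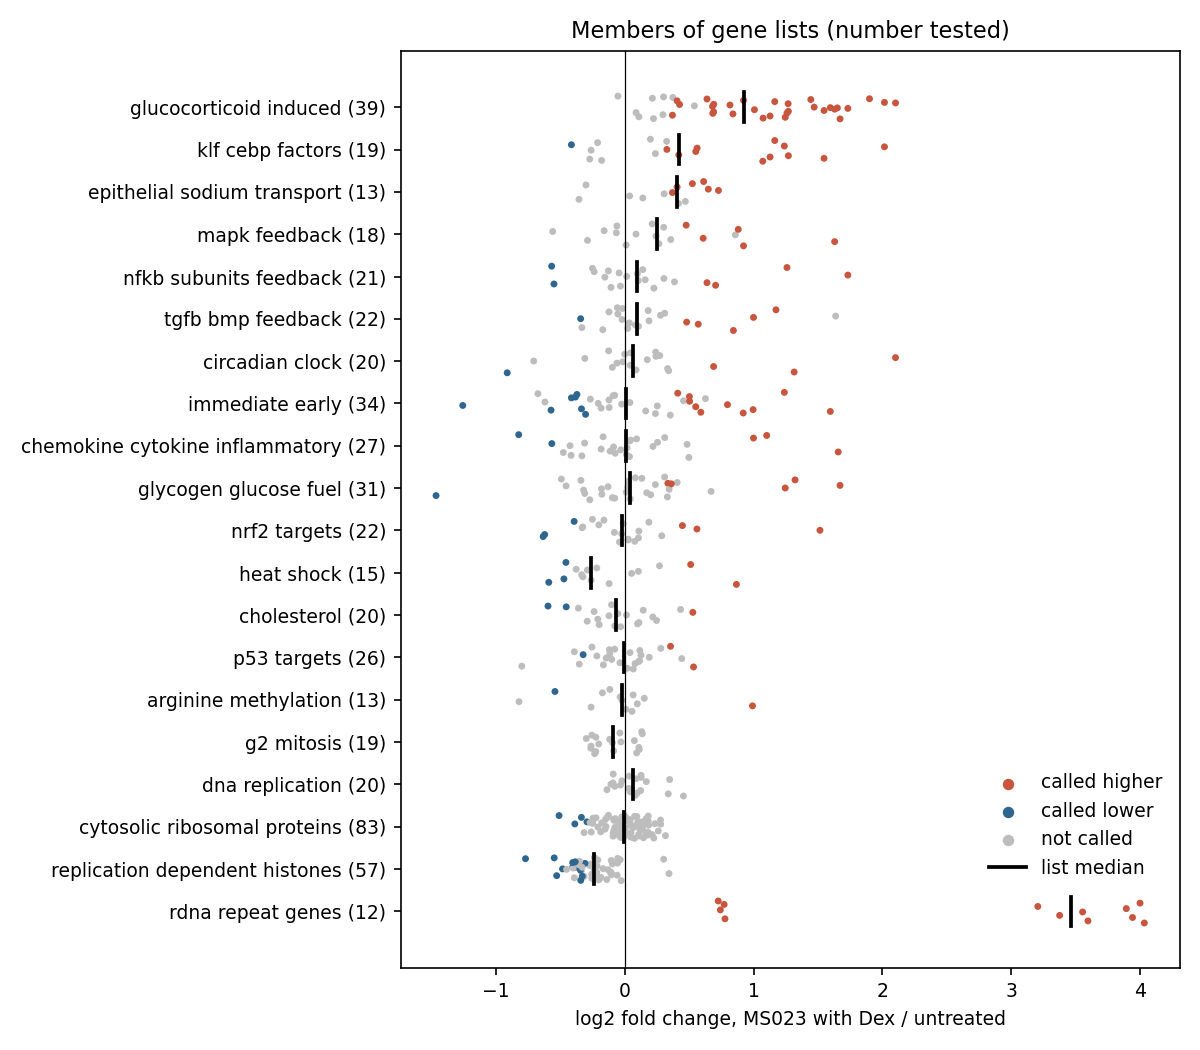
Log2 fold change of MS023 with Dex over untreated (horizontal axis) for each tested member of 20 gene lists (rows, number tested in brackets), red where called higher, blue where called lower and grey where not called; black bars are list medians. The glucocorticoid-induced list has a median of 0.92, the ribosomal DNA genes 3.47 and the replication-dependent histones -0.24.

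Clock genes were called at 4 of 20, with 3 higher and 1 lower, beside 4.99% and 2.67% of all genes. Beside PER1, the period gene PER2 rose by 0.69 ± 0.13 and the nuclear receptor gene NR1D2 from 6.35 and 8.32 to 18.3 and 18.2 CPM (1.31 ± 0.20). BHLHE40, a transcriptional repressor of clock genes, fell from 194.8 and 189.2 to 108.5 and 95.1 CPM (-0.91 ± 0.10, adjusted p 5.3e-09), and stood at 153.3 and 156.4 CPM with MS023 alone. In TGF-β and BMP signalling 5 of 22 rose and 1 (TGFB1) fell, beside the same shares of all genes. The call of TGFB1 was lost whichever of the 4 libraries was left out, with log2 fold changes of -0.37 to -0.32. SMURF2, a ubiquitin ligase that degrades receptors and SMADs, rose by 1.17 ± 0.16 and BAMBI, a decoy receptor, by 0.84 ± 0.14.

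Genes of epithelial sodium transport, a process that corticosteroids drive in the lung, were higher at 6 of 13 and lower at 0 (median 0.41), beside 4.99% and 2.67% of all genes. The count of 6 was 1 to 5 when any 1 of the 4 libraries was left out, and 2 with library-size scaling or DESeq2. The kinase gene SGK1 stood at 37.5 and 40.3 CPM untreated and 45.6 and 57.4 treated (0.41 ± 0.11, adjusted p 0.018). Its call was lost without MS023 with Dex replicate 2 or either untreated library (0.23 to 0.46). SCNN1A, the channel's alpha subunit, stood at 51.5 and 58.5 against 67.2 and 74.8 CPM (0.37 ± 0.10), a call lost without MS023 with Dex replicate 2 or untreated replicate 1 (0.28 to 0.29).

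The list of the receptor also held its chaperones, coregulators and related genes. Of its 19 tested genes, 3 rose and 2 fell, beside 4.99% and 2.67% of all genes, with FKBP5 the largest. Without any 1 library 1 to 2 rose and 0 to 1 fell, with library-size scaling 1 rose and 1 fell, and with DESeq2 1 rose and 0 fell. NR3C1, the glucocorticoid receptor gene, stood at 66.9 and 72.3 CPM untreated and 71.7 and 72.5 treated (0.05 ± 0.10, adjusted p 0.86). HSP90AA1, a chaperone of the unliganded receptor, was lower (63.5 and 73.9 to 43.7 and 47.4 CPM, -0.59 ± 0.17). That call was lost whichever of the 4 libraries was left out (-0.70 to -0.48).

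Arginine methylation genes, which include type I enzymes but also PRMT5 and its partners, were called at 2 of 13. Of these 1 rose and 1 fell, beside 4.99% and 2.67% of all genes. PRMT1, the main type I enzyme, stood at 94.7 and 94.3 CPM untreated and 94.3 and 95.8 treated (0.01 ± 0.09), and PRMT5 at 13.7 and 13.8 against 13.3 and 12.0 CPM (-0.12 ± 0.16). COPRS, which recruits PRMT5 to histones, rose from 11.2 and 13.9 to 21.4 and 28.4 CPM (0.99 ± 0.18), and stood at 21.5 and 15.5 CPM with GSK591 alone. JMJD6, an oxygenase reported to act on arginine residues, was lower by -0.54 ± 0.13, a call lost without MS023 with Dex replicate 1 or untreated replicate 2 (-0.52 to -0.49). None of the 8 Sm protein genes, some of whose products carry arginine methylation, was called. SNRPB among them had a log2 fold change of -0.16 ± 0.12.

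Beyond the listed genes, some of the largest rises were at genes whose levels were also higher with an inhibitor alone. For CITED4 and AVEN this inhibitor was GSK591 and not MS023, by level only, since GSK591 alone was not tested against untreated cells. MIR663AHG, a noncoding RNA gene, rose from 38.9 and 42.7 to 237.2 and 219.7 CPM (2.48 ± 0.23), and was at 103.7 and 131.1 CPM with MS023 alone (1.52, adjusted p 0.00024). CITED4, a coregulator that binds CBP and p300, rose from 17.96 and 19.2 to 60.3 and 73.1 CPM (1.85 ± 0.14), beside 39.7 and 28.3 CPM with GSK591 alone. With MS023 alone CITED4 stood at 12.65 and 19.7 CPM (-0.23, not called). AVEN, an apoptosis inhibitor, rose from 5.81 and 5.26 to 17.8 and 26.4 CPM (1.99 ± 0.24), beside 10.7 and 9.78 CPM with GSK591 alone. With MS023 alone AVEN stood at 3.78 and 7.51 CPM (-0.04, not called). UBTD2 (1.99 ± 0.24), TMEM117 (1.79 ± 0.23), the kinase gene MAP3K1 (1.77 ± 0.20) and AC010501.1, which overlaps FAM169A on the other strand (1.81 ± 0.22), completed the 12 largest rises under the naming rule. In GSK591 with Dex against GSK591 alone, the log2 fold changes of AVEN, UBTD2, AC010501.1 and MAP3K1 were 0.12, 0.48, 0.05 and 0.43, none of them called. Against untreated cells, GSK591 with Dex gave 1.01, 1.19, 1.21 and 1.46 in the same order, each called higher. GSK591 alone stood at 13.07 and 6.56 CPM for UBTD2, 10.6 and 7.15 for AC010501.1 and 13.3 and 9.42 for MAP3K1. Untreated levels were 6.35 and 5.69, 4.30 and 3.61, and 5.70 and 5.47 CPM.

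Among the largest falls after GYS1 and IER2 was a divergent pair on chromosome 19. TDRD12, a germline piRNA factor, fell from 15.7 and 12.8 to 8.06 and 5.48 CPM (-1.08 ± 0.20). The noncoding gene AC008736.2, whose start lies 158 bases away on the opposite strand, fell from 8.28 and 7.01 to 2.80 and 3.31 CPM (-1.32 ± 0.27). NUDT19, named after its value was seen, lies 4502 bases from AC008736.2 on the other side and rose by 0.80 ± 0.14. PHB1, which encodes prohibitin, fell from 10.3 and 10.9 to 4.32 and 5.14 CPM (-1.16 ± 0.23), and CIROP by 1.43 ± 0.26 on the log2 scale. The authors' deposited DESeq2 table called GYS1 and IER2 but not these falls. Its adjusted p was 0.13 for TDRD12, 0.16 for AC008736.2, 0.051 for PHB1 and 0.090 for CIROP.

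Further falls of low genes were not called in every fit without 1 library. AC006273.1 (-1.33 ± 0.29) lost its call without MS023 with Dex replicate 1 or untreated replicate 2 (-1.13 to -0.91), and the cell cycle kinase gene CDK2 (-1.08 ± 0.26) without MS023 with Dex replicate 2 or untreated replicate 1 (-1.06 to -0.78). GEMIN6, of the complex that assembles Sm proteins (-1.07 ± 0.21), lost it without MS023 with Dex replicate 1 (-0.85), and the sterol oxidase gene MSMO1 (-1.07 ± 0.24) without untreated replicate 1 (-0.92).

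The highest fold changes of all lists were in the ribosomal DNA repeats, where 12 of 12 tested genes rose (median 3.47; 8 to 12 without any 1 of the 4 libraries). MIR3648-1 (chromosome 21, 8208473 to 8208652, plus strand) went from 34.4 and 39.6 to 581.3 and 633.1 CPM (4.04 ± 0.34), and MIR6724-2 from 2.37 and 1.42 to 21.4 and 24.9 CPM (3.60 ± 0.25). MIR3648-1 stood at 73.7 and 128.9 CPM with MS023 alone, 293.3 and 84.4 with GSK591 alone, and 844.6 and 305.3 with GSK591 and Dex. MIR6724-2 stood at 1.41 and 1.501, 8.24 and 3.81, and 11.7 and 14.1 CPM in the same order. The 5.8S rRNA gene RNA5-8SN1 rose less, from 1598 and 1351 to 2837 and 2036 CPM (0.72 ± 0.17), below its 3181 and 3354 CPM with MS023 alone. These genes are near-identical copies, so the copy is uncertain, and run-on reads there report the repeat's transcription and not the mature microRNA. The mature sequences of miR-3648 and miR-6724-5p are shown with the seed in capitals, since their genes were among the largest rises, and these 2 differ in seed (RefSeq, GRCh38.p14).
hsa-miR-3648: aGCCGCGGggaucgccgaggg
hsa-miR-6724-5p: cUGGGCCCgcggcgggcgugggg

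Replication-dependent histone genes were slightly lower: 13 of 57 fell and 0 rose (median -0.24), with 48 of 57 lower in both treated libraries than in both untreated ones, against 25.5% of all genes. Counts of calls in this paragraph stand beside 4.99% of all genes called higher and 2.67% called lower. Histone genes are close copies of each other, so reads may be split between them. H2BC18 fell from 134.8 and 130.6 to 87.2 and 94.1 CPM (-0.55 ± 0.10). MS023 alone gave 2 falls and a median of -0.26, and Dex added to MS023 0 calls and a median of 0.01, or -0.17 with library-size scaling. With that scaling 4 of the 57 fell in the main comparison, with DESeq2 9, and 2 to 4 when any 1 of the 4 libraries was left out. Among stress genes 2 of 15 heat shock genes rose and 3 fell (0 to 1 without any 1 library), and 3 of 22 NRF2 targets rose and 3 fell (1 to 2 without any 1 library). BAG3, a cochaperone, rose by 0.87 ± 0.13 and SRXN1, which repairs peroxiredoxins, by 1.52 ± 0.16. FTL, the ferritin light chain, fell from 191.2 and 162.4 to 119.1 and 110.4 CPM (-0.62 ± 0.10).

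Calls in each direction differed in gene span. Among protein-coding genes, 907 rose and 446 fell. Those that rose spanned a median of 45.3 kb, those that fell 9.07 kb and those not called 31.2 kb. The share called lower declined from 7.21% of 1414 genes under 5 kb to 0.458% of 1530 genes over 150 kb, and the share called higher was 6.58% and 9.61%, with a low of 4.20% among genes of 5 to 20 kb. The median log2 fold change went from -0.07 to 0.12 over the same range, from -0.13 to 0.06 for GSK591 with Dex against GSK591 alone, and from -0.01 to -0.01 for MS023 alone. Median levels of the shortest and longest class were 14.6 and 11.5 CPM, and the part of depth and of the counting feature in this pattern was not tested.

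**Figure D5:**
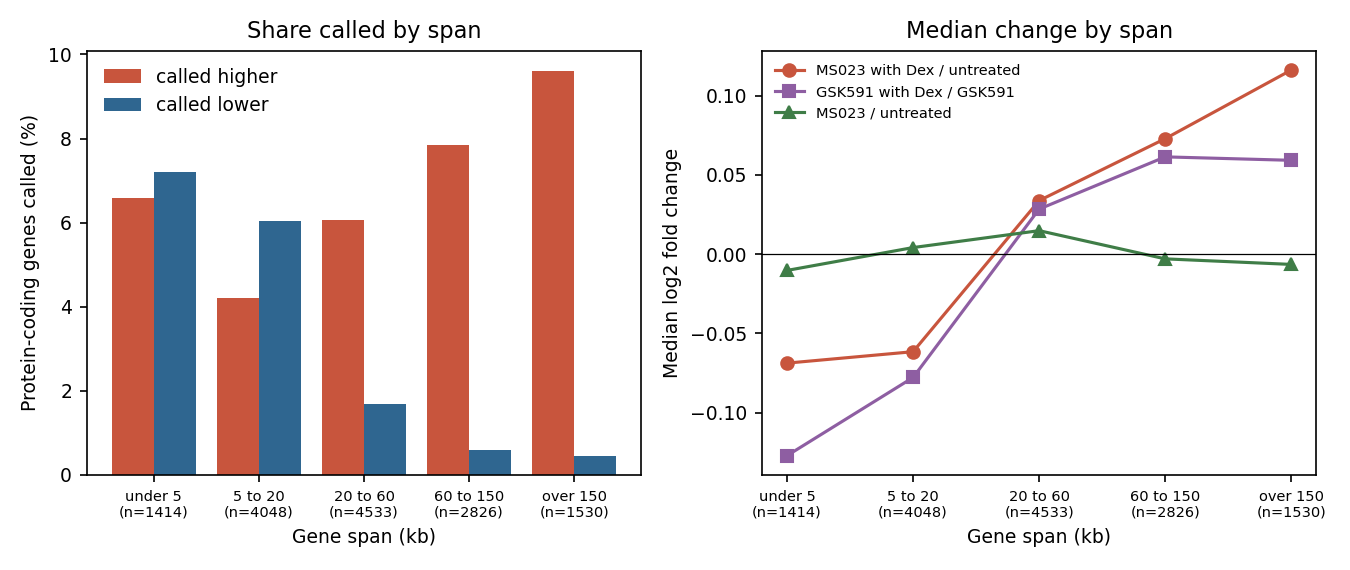
Left, share of protein-coding genes called higher (red) and lower (blue) by MS023 with Dex against untreated in 5 classes of gene span in kb (bars from 0; n, genes tested). Right, median log2 fold change per class for this comparison, for GSK591 with Dex over GSK591 alone and for MS023 over untreated; the first rises from -0.07 to 0.12 and the last stays between -0.01 and 0.01.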

How the data were processed

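The authors deposited whole-number read counts per gene for all 14 libraries. Subread, featureCounts 2.0.1, DESeq2 and hg38 are named per the submitters' processing notes, while the strand setting, the counting feature and the handling of duplicates are not given in the sources used here. The authors' deposited table for this comparison holds, per the file headers, the mean signal of each gene, log2 fold changes with standard errors, the Wald score and p-values before and after adjustment. Coordinates come from GENCODE release 29 (GRCh38).

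Counts were tested as deposited by the quasi-likelihood test of edgeR 4.0.16 in R 4.3.3. TMM factors scaled the libraries, and the package's filter on low counts left 21910 of 58780 genes. All 14 libraries entered 1 fit with 1 coefficient per group (7 residual degrees of freedom), and a Benjamini-Hochberg adjusted p under 0.05 made a call. CPM values use TMM-scaled library sizes. Errors of log2 fold changes are standard errors from that fit. Without a spike-in, changes are relative to the bulk of genes. Scripts were tested on simulated data.

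The comparison, the gene lists and the tests were chosen with earlier results of these data known. Genes outside the lists were named by a rule: protein-coding or long noncoding, called, at least 5 CPM on average, libraries not overlapping, and the 12 largest rises and falls. The 1 such fall on chromosome 8, and some other genes of the rule and the lists, are not reported here. Of called multi-copy genes, tRNA genes and pseudogenes, only the repeat genes of the lists are named. Alternatives were DESeq2 1.42.0, other scalings, no filter, only the groups compared, a replicate block and leaving out each library. Replicate numbers shared only a number (deviations of same-numbered libraries correlated at -0.07 to 0.10 over 21 pairs of groups).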

Additional observations from a re-analysis of the deposited data

Results flagged for a closer look

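Of the 252 genes at which the effect of Dex differed between cells given MS023 and cells given GSK591, 22 are among the genes named or examined singly here. The test of the difference was chosen after seeing the data (edgeR adjusted p under 0.05 over 21910 genes). The difference, Dex added to MS023 minus Dex added to GSK591, is given on the log2 scale. It was largest at the ribosomal DNA genes MIR6724-1 (3.34) and MIR6724-2 (2.90). At KLF15 it was 1.79 ± 0.26 (SE; adjusted p 0.00011), from a Dex effect of 1.14 with MS023 and -0.65 with GSK591. Among transcription factors it was 1.19 at CEBPA, 1.00 at CEBPB, 0.95 at CEBPD, 0.96 at KLF2, 0.92 at JUND and 1.19 at NR1D2. Genes of signalling gave 1.20 at MAP3K1, 0.63 at IRS2, 0.99 at SMURF2 and 0.71 at BTG1. The coregulator gene CITED4 gave 1.34 and COPRS, a partner of PRMT5, 1.22. The redox and iron genes SRXN1 and FTH1 gave 1.54 and 0.58, the laforin gene EPM2A 1.15, AVEN 1.91, UBTD2 2.04, TMEM117 1.68 and the noncoding gene AC010501.1 1.90.

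All 22 differences kept their sign when each of the 8 libraries was left out in turn, but only KLF15, MIR6724-1 and MIR6724-2 kept the call without any 1 of them. Without MS023 replicate 1, 3 of the 22 stayed called, without GSK591 replicate 1 9, without MS023 with Dex replicate 2 11 and without GSK591 with Dex replicate 2 15. The KLF15 difference ranged from 1.28 to 2.43. CPM levels with GSK591 alone and no Dex were already 87.3 and 57.5 for KLF15 against 26.4 and 30.7 untreated. For CEBPA they were 87.7 and 74.5 against 46.1 and 43.1. MS023 with Dex against GSK591 with Dex called 0 genes by edgeR. The difference of the Dex effects also contains the levels without Dex, and the part of those levels in it was not tested.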

How the results depend on the processing

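Against 1679 genes called for MS023 with Dex, DESeq2 gave 832, library size alone 977, only the groups compared 2620, and leaving out 1 library 657 to 963. Median-of-ratios scaling (1660), no filter (1558), counts without mitochondrial genes (1676) and, added after seeing the data, without ribosomal DNA genes (1651) stayed within 1.5 times. The replicate numbers share only a number, and the replicate block gave 1740 genes. Dex added to MS023 (1966) gave 1020 with DESeq2 and 641 to 1572 without 1 library. MS023 alone (40) gave 101 with no filter, 176 with only the groups compared and 2 to 22 without 1 library. GSK591 with Dex against untreated (1282; 703 higher, 579 lower) gave 596 with DESeq2, 801 with only the groups compared, 420 to 1058 without 1 library, and 228 higher and 740 lower with library size alone. MS023 with Dex against GSK591 with Dex (0) gave 35 with no filter, 4 with only the groups compared and 0 to 78 without 1 library. Of 1625 values of 136 single genes under the alternatives, 1403 kept their side of the threshold, 221 lost the call and 1 gained it. Among values called in either fit, 0 reversed direction, while a change of sign at values called in neither was counted as kept. With 2 libraries a group, small changes at genes of few CPM are the least certain: 3 counts equal 0.323 to 0.351 CPM in the 4 libraries compared.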

Other observations

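Counts for further gene groups, growth and division first, stand beside 4.99% of all genes called higher and 2.67% called lower. None of 19 G2 and mitosis genes and none of 20 DNA replication genes was called by edgeR between MS023 with Dex and untreated cells, with medians of -0.10 and 0.06. Of 83 cytosolic ribosomal protein genes 4 fell and 0 rose (median -0.01; 1 to 2 falls without any 1 of the 4 libraries), with RPL28 lower by -0.51 ± 0.10. Of 17 genes of RNA polymerase I and the nucleolus 1 fell and 0 rose. In the MYC network 3 of 11 rose (0 to 2 without any 1 library) and 2 fell, and MLX, a partner of glucose-sensing factors, went from 56.5 and 48.5 to 34.9 and 35.3 CPM (-0.58 ± 0.11). Of 20 cholesterol synthesis genes 1 rose and 2 fell, and of 26 p53 targets 2 rose and 1 fell. Without any 1 library, 0 to 1 cholesterol genes rose and 0 to 1 fell, and 0 to 2 p53 targets rose and 0 fell. Among regulators of polymerase pausing, 1 of 18 rose and 2 fell. Of 16 SR splicing factor genes 2 rose and 0 fell, and of 18 genes of the integrated stress response 1 rose and 2 fell. Without any 1 library, 0 pausing regulators rose and 0 to 1 fell, 0 to 1 SR genes rose and 0 to 1 fell, and 1 to 2 stress response genes rose and 0 to 1 fell.

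Of 14351 protein-coding genes 6.32% rose and 3.11% fell, of 2237 antisense genes 2.06% and 2.28%, and of 1571 lincRNA genes 2.55% and 2.74%. Among 23 rRNA genes 17 rose and 0 fell, and among 130 microRNA genes 16 rose and 0 fell. Differences between these classes were not tested. Among mitochondrially encoded genes 1 of 29 rose and 0 fell, with a median of -0.14.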
